A study of Homo sapiens with 6 samples.

Results

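The comparison described here set 2 arrays labelled miR-125a sponge against 2 arrays labelled IGF1R shRNA, which are 4 of the 6 arrays of the study. They were chosen by their treatment label, and each treatment was represented by 1 array from HEL and 1 from SET2. The labels call both lines acute myeloid leukemia lines. HEL grew out of an erythroleukemia, SET2 out of a leukemia that followed essential thrombocythemia, and in both the kinase JAK2 is known to be activated by mutation. All cells had been transduced with lentivirus and kept in puromycin for 96 h before total RNA was taken, so every array reports a bulk culture of selected cells. The sponge samples are also labelled as miR125a-transduced. The remaining 2 arrays came from cells transduced with pLKO, the backbone of many shRNA vectors. They entered no difference of the main comparison, and their values are given last, for orientation. Fits with a single array left out, or with all 6 arrays, also held them. With a single array left out they helped to set the gap between the lines, and so those differences. For the shRNA and the sponge, the sources used here give no sequence. Replication rested on the pair of lines alone, and nothing in the labels says that a culture was repeated. P-values therefore set the average difference against a spread that joins the disagreement of the lines with a spread borrowed from all genes. The borrowed part weighed more, with 5.46 prior against 1 residual degree of freedom.

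MicroRNAs of the miR-125 family guide the Argonaute proteins to transcripts that pair with their seed, the bases near the 5′ end, and lower the output of those transcripts. A sponge is a transcript with many binding sites that is meant to occupy the microRNA and so release its targets. IGF1R is the receptor tyrosine kinase for insulin-like growth factors and signals through PI3K, AKT and mTORC1 and through RAS and ERK. The study concerns ZFAND2B, which encodes the proteasome-associated protein AIRAPL and is treated in it both as part of the control of IGF-1 signalling and as a target of miR-125a. Setting the sponge against the shRNA asks where the transcriptomes of cells carrying these constructs differ. The sequences below are shown because the sponge is named for the first of them and because both family members share the seed, so a sponge with seed sites would be open to either. They come from RefSeq on GRCh38.p14, with the seed, bases 2 to 8, in capitals.
hsa-miR-125a-5p: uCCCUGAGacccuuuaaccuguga
hsa-miR-125b-5p: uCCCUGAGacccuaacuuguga
The first lies at chr19:51693268-51693291 on the plus strand, and the second is encoded on chromosomes 11 and 21. Mature microRNA levels were not analysed here, so the binding of either by the sponge was not measured.

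Levels are log2 values averaged over the probe sets of a gene, and differences are sponge minus IGF1R shRNA, so that 1 unit is a factor of 2. Array medians were 5.69 to 5.75. Over 22320 genes, the sponge and shRNA arrays correlated at 0.9780 in HEL and 0.9879 in SET2. The 6 monocyte and granulocyte markers had median levels of 5.44 in the HEL sponge array and 6.75 in the SET2 sponge array, against 5.61 and 6.26 in the shRNA arrays. For the 5 erythroid markers the medians were 7.78 and 8.42 in the sponge arrays and 7.62 and 8.27 in the shRNA arrays. For the 5 megakaryocyte markers they were 9.42 and 7.215 in the sponge arrays and 9.50 and 7.37 in the shRNA arrays. These values carry no detection call, so the absence of a marker could not be shown.

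IGF1R, the transcript that the shRNA names, was not detectably lower in the arrays carrying its label. Its level was 8.81 in HEL and 8.37 in SET2 with the sponge, 8.56 and 8.33 with the IGF1R shRNA, and 8.63 and 8.32 in the control. In both lines the shRNA array lay below the sponge array but close to the control. The difference was 0.25 in HEL and 0.04 in SET2, on average 0.15 (SE 0.17, 2 lines, 95% confidence interval -0.27 to 0.56, limma adjusted p = 0.948). Of its 22 probe sets, 7 were higher and 4 lower with the sponge in both lines, and with their median in place of the mean the gene stood at -0.085. The sources used here do not say where the probe sets lie relative to the shRNA's site. The group is therefore called by its label, and every direction below compares labelled arrays rather than cells shown to have lost the receptor.

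ZFAND2B stood at 6.64 in HEL and 5.68 in SET2 with the sponge, 6.45 and 5.80 with the IGF1R shRNA, and 6.80 and 5.67 in the control. The sponge array was the higher of the pair in HEL and the lower in SET2. On average the difference was 0.04 (SE 0.18, 95% confidence interval -0.39 to 0.47, adjusted p = 0.99 by limma). It ranged from -0.1537 without IGF1R shRNA replicate 1 to 0.2323 without IGF1R shRNA replicate 2, where replicate 1 is HEL and replicate 2 is SET2. These fits with a single array left out also held the control arrays.

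Over all genes, the arrays differed more in HEL than in SET2, and mostly in different genes. The standard deviation of the differences was 0.383 in HEL and 0.284 in SET2. In HEL 292 genes were at least 2-fold higher and 241 at least 2-fold lower with the sponge, and in SET2 the counts were 61 and 77. Differences in HEL and in SET2 correlated at 0.0525 across all genes and at 0.0832 across 9446 brighter genes with 5 or more probe sets, a description in which genes are not independent. At least 1.5-fold in the same direction in both lines, 77 genes (0.345% of 22320) were higher with the sponge and 48 (0.215%) lower. A further 41 genes were past 1.5-fold upward in HEL and downward in SET2, and 53 the other way round. Of the 125 genes past 1.5-fold in both lines, 63 rested on fewer than 5 probe sets and are not ranked below.

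After Benjamini-Hochberg adjustment limma called 0 of 22320 genes (0.0%), and 1214 (5.44%) had an unadjusted p under 0.05, of which 688 were higher (3.08%) and 526 lower (2.36%), and chance alone gives 1116 on average. An adjusted p of 0.4645, the smallest, was shared by 7 genes, among them THBS1, STAR, PRF1 and ETV4. With genes of fewer than 5 probe sets left out of the fit, THBS1 (adjusted p = 0.0321), STAR (adjusted p = 0.0463) and PRF1 (adjusted p = 0.0469) passed, and with dim genes left out THBS1 alone passed (adjusted p = 0.0385). In fits with a single array left out, a treatment rests on a lone array, which is then assumed to vary like the others. Without IGF1R shRNA replicate 2, HEL alone carried the label, and the sponge and control arrays together supplied the residual spread. Counts of genes called in such fits are therefore not given.

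**Figure D1:**
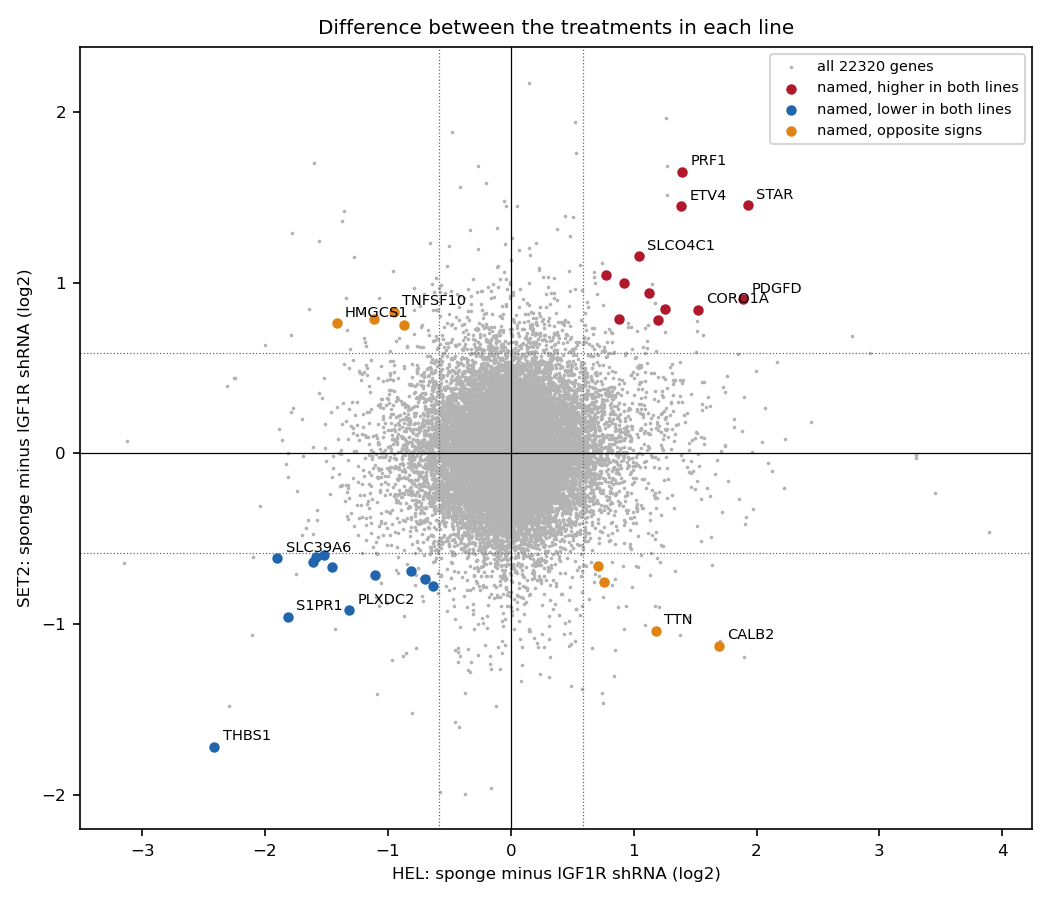
Difference sponge minus IGF1R shRNA in HEL (horizontal axis, log2) against that in SET2 (vertical axis, log2), 1 point per gene, with the ranked genes and those of opposite sign in colour and dotted lines at 1.5-fold. The cloud has no clear diagonal (r = 0.0525), is wider in HEL than in SET2, and THBS1, STAR, PRF1 and ETV4 lie outside it in the same direction in both lines.

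Among genes ranked by the smaller of their differences in the lines, the 12 highest with the sponge were led by STAR, PRF1 and ETV4. STAR, which carries cholesterol into mitochondria for steroid synthesis, had a level of 8.71 in HEL and 6.53 in SET2 with the sponge, 6.78 and 5.08 with the IGF1R shRNA, and 8.66 and 6.96 in the control. The sponge array exceeded the shRNA array by a wide margin within each line, and the shRNA array was the one that stood apart from the control. The difference was 1.93 in HEL and 1.45 in SET2, on average 1.69 or 3.23-fold (SE 0.19, 2 lines, 95% confidence interval 1.23 to 2.15). PRF1, the pore-forming protein perforin of cytotoxic lymphocytes, had 6.28 and 6.44 with the sponge, 4.88 and 4.79 with the IGF1R shRNA, and 6.59 and 6.93 in the control. Both sponge arrays lay between the shRNA array and the control of their line. The average difference was 1.52 or 2.87-fold (SE 0.17, 95% confidence interval 1.10 to 1.94). ETV4, an ETS transcription factor induced by ERK signalling, had 7.04 and 6.69 with the sponge, 5.65 and 5.24 with the IGF1R shRNA, and 7.15 and 6.67 in the control. The sponge arrays were within 0.2 of the control of their line. The lines gave nearly the same difference, 1.39 in HEL and 1.45 in SET2, on average 1.42 or 2.67-fold (SE 0.17).

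The other 9 genes of this ranking were each between 1.78-fold and 2.64-fold higher on average, with limma adjusted p of 0.858 for SLCO4C1 and 0.906 for the rest. PDGFD, a ligand of the PDGF receptor, had 6.46 in HEL and 7.55 in SET2 with the sponge, 4.57 and 6.64 with the IGF1R shRNA, and 5.88 and 7.64 in the control. In HEL the sponge array was above both other arrays, whereas in SET2 it was close to the control. SLCO4C1, an organic anion transporter, had 7.96 and 8.06 with the sponge, 6.92 and 6.91 with the IGF1R shRNA, and 7.06 and 8.24 in the control. In HEL the array that stood apart was therefore the sponge array, and in SET2 the shRNA array. CORO1A, the actin regulator coronin of blood cells, differed by 1.52 in HEL and 0.84 in SET2. MICAL1, a monooxygenase that takes actin filaments apart, differed by 0.88 and 0.79. PYGL, the glycogen phosphorylase of liver and blood cells, differed by 1.12 and 0.94, and the sodium channel gene SCN9A by 0.92 and 0.99. KLHL2, an adaptor of a cullin ubiquitin ligase, differed by 1.25 and 0.84, and the zinc finger gene ZNF385A by 1.19 and 0.78. GOLGA8H differed by 0.78 and 1.04, but it belongs to a family of near-identical golgin copies and its average was -0.095 with the brightest probe set.

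Of the 12 genes ranked lowest with the sponge, THBS1 had the widest margin in both lines. It encodes thrombospondin, a glycoprotein of platelets and matrix that binds CD36 and CD47 and activates latent TGF-beta. Its level was 7.60 in HEL and 6.96 in SET2 with the sponge, 10.01 and 8.67 with the IGF1R shRNA, and 7.47 and 7.41 in the control. The shRNA array was the highest of each line. The difference was -2.41 in HEL and -1.72 in SET2, on average -2.06, which is 4.18-fold lower (SE 0.22, 2 lines, 95% confidence interval -2.58 to -1.54). All 21 of its probe sets were lower with the sponge in both lines. S1PR1, the receptor for sphingosine-1-phosphate that guides cells out of tissues, had 5.15 and 6.44 with the sponge, 6.96 and 7.39 with the IGF1R shRNA, and 5.19 and 6.60 in the control. Within each line it was lower in the sponge array, which lay close to the control. The differences were -1.81 and -0.96 (average -1.39, SE 0.24, limma adjusted p = 0.906).

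SLC39A6, a zinc importer, had 8.10 in HEL and 7.46 in SET2 with the sponge, 9.996 and 8.07 with the IGF1R shRNA, and 8.35 and 7.60 in the control. PTGER3, a receptor for prostaglandin E2, had 6.48 and 6.38 with the sponge, 8.06 and 6.99 with the IGF1R shRNA, and 6.18 and 6.54 in the control. In both genes the HEL array labelled IGF1R shRNA was the highest of the 6. JAG1, a ligand of the Notch receptors, differed by -1.52 and -0.59, and FAT4, a large cadherin, by -1.61 and -0.64. With the brightest probe set the average of JAG1 turned to 0.395. TMEM45A, a membrane protein gene, differed by -1.46 and -0.66, PLXDC2, a plexin domain protein gene, by -1.32 and -0.92, and the lysosomal carboxypeptidase gene CTSA by -1.10 and -0.71. TSC22D1, a TGF-beta responsive regulator, differed by -0.63 and -0.77. LRRC16A, which encodes an inhibitor of actin capping protein, differed by -0.70 and -0.73, and its average was 0.03 with the brightest probe set. LRRC32, which holds latent TGF-beta at the cell surface, differed by -0.81 and -0.69, and in SET2 its shRNA level of 4.72 was near the control at 4.88, the sponge array being the lower at 4.03.

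**Figure D2:**
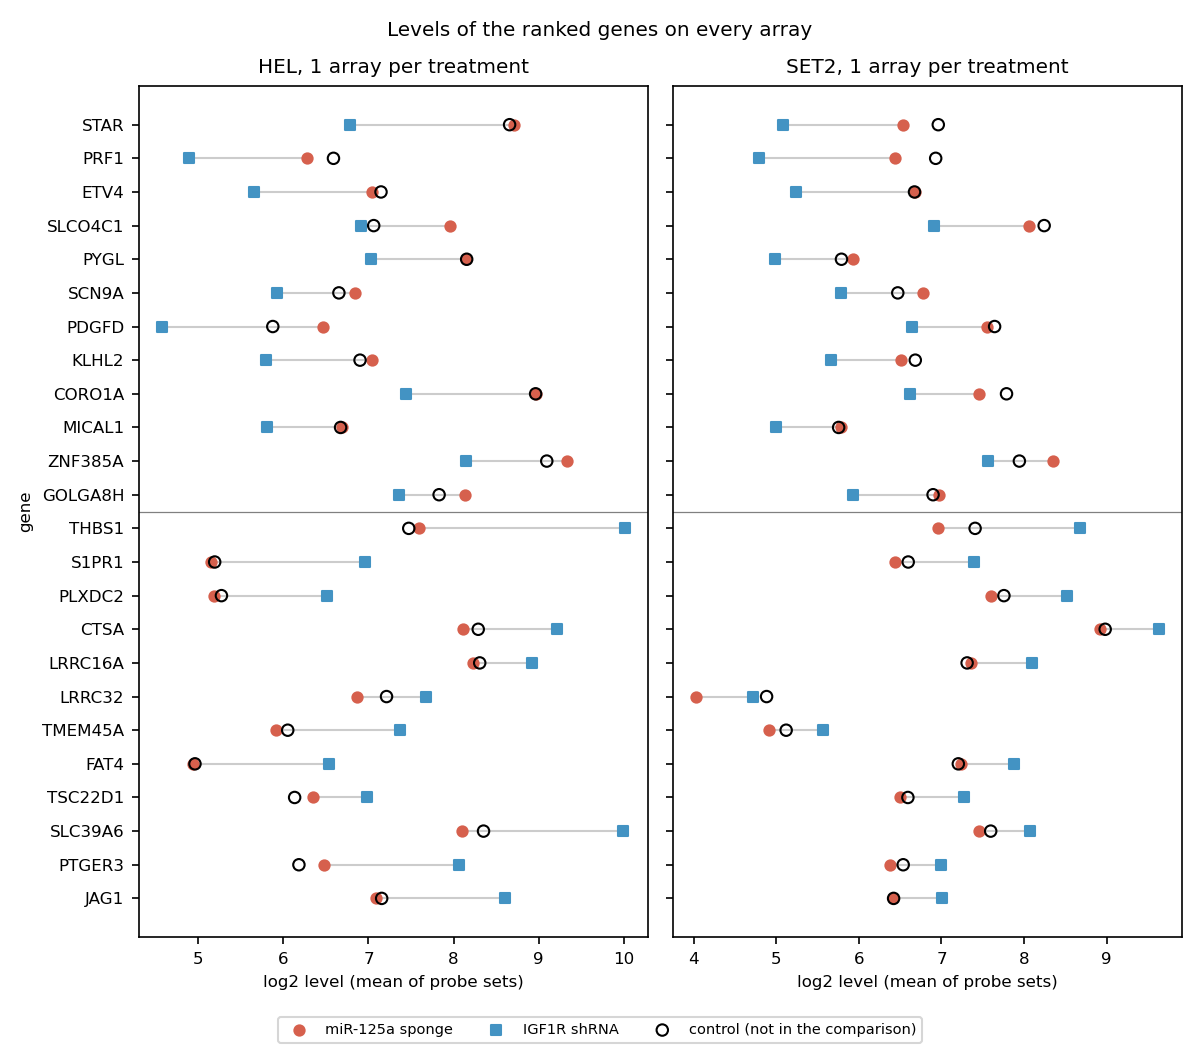
Log2 level (horizontal axis) of the 12 genes ranked highest and the 12 ranked lowest with the sponge, in HEL (left) and SET2 (right), for sponge, IGF1R shRNA and control arrays, 1 array each. The sponge point lies nearer to the control than the shRNA point does, as for ETV4 and CTSA, except for SLCO4C1 in HEL and for ZNF385A and LRRC32 in SET2.

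In HEL and on average, the list with the largest median difference held genes induced by ATF4 and by amino acid shortage. When amino acids run short or the endoplasmic reticulum is strained, kinases phosphorylate the translation factor eIF2, ATF4 is then translated, and it induces genes that make, import and charge amino acids. Of the 33 genes listed, 22 were higher with the sponge in both lines, where 25.1% of all genes were, and 2 were lower in both, where 26.1% were. The median difference was 0.82 in HEL and 0.19 in SET2, on average 0.45, against -0.015, 0.0075 and -0.006 over all genes. None passed the test over all genes. An unadjusted limma p under 0.05 was found for 15, and all 15 were higher on average (3.08% of all genes). SLC7A11, which is among these 15, was at -0.02 in SET2. DDIT4 alone was past 1.5-fold in both lines. The list was drawn up with earlier results of these data known and its lower level under the IGF1R shRNA was one of them.

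Among its regulators, DDIT4, which inhibits mTORC1, had a level of 9.66 in HEL and 7.73 in SET2 with the sponge, 6.74 and 7.14 with the IGF1R shRNA, and 9.85 and 7.71 in the control. The HEL array labelled IGF1R shRNA was by far the lowest of its line, and the SET2 one was lowest by a smaller margin. The difference was 2.93 in HEL and 0.59 in SET2, on average 1.76 (SE 0.49, limma adjusted p = 0.906). CHAC1, which degrades glutathione, had 8.94 and 6.06 with the sponge, 6.50 and 5.88 with the IGF1R shRNA, and 8.93 and 6.40 in the control. Its difference of 2.44 in HEL shrank to 0.18 in SET2. SESN2, an inhibitor of mTORC1 that senses leucine, differed by 1.27 and 0.15, and the pseudokinase gene TRIB3 by 0.82 and 0.32. The leucine zipper gene CEBPG differed by 1.56 and 0.26. ATF4 itself, which is controlled largely by translation, differed by 0.44 in HEL and -0.04 in SET2, and DDIT3, which encodes CHOP, by 0.66 and -0.33. ATF5 and STC2 were lower with the sponge in both lines, by -0.22 and -0.29 for ATF5 and by -0.11 and -0.30 for STC2.

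Several enzymes of amino acid synthesis stood higher with the sponge in both lines. Others had opposite signs in the lines, with PYCR1 at 0.32 and -0.27, ALDH18A1 at -0.27 and 0.25, and CTH at -0.05 and 0.63. ASNS, asparagine synthetase, had 7.94 in HEL and 6.25 in SET2 with the sponge, 6.62 and 5.85 with the IGF1R shRNA, and 8.16 and 6.26 in the control. PSAT1, an aminotransferase of serine synthesis, had 10.45 and 8.32 with the sponge, 9.34 and 7.79 with the IGF1R shRNA, and 10.67 and 8.67 in the control. In each case the shRNA array was the lowest of its line. ASNS differed by 1.32 and 0.40, PSAT1 by 1.11 and 0.53, PHGDH, which opens the serine pathway, by 0.93 and 0.57, and CBS, which makes cystathionine, by 1.55 and 0.42. The folate enzymes of mitochondria were apart mainly in HEL, with ALDH1L2 at 1.89 and 0.13, SHMT2 at 0.89 and 0.07, and MTHFD2 at 0.92 and -0.01. Whether the lines differ in these genes was not tested, since there was 1 array per line and treatment.

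Of the transporters, SLC7A11, the cystine importer, had the largest difference of the list in HEL. It had 9.79 in HEL and 7.92 in SET2 with the sponge, 6.49 and 7.94 with the IGF1R shRNA, and 9.58 and 8.11 in the control. The HEL array labelled IGF1R shRNA was thus 9.82-fold below its sponge array, while the SET2 arrays were level. The neutral amino acid transporter genes SLC1A4 and SLC1A5 differed by 1.47 and 1.29 in HEL and by 0.08 and 0.22 in SET2. SLC7A1, an importer of arginine and lysine, differed by 0.94 and 0.36. SLC7A5 and SLC3A2, which together form the leucine transporter, differed by 0.11 and 0.42 in HEL and by 0.02 and 0.01 in SET2.

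The cytosolic tRNA synthetases, which charge amino acids onto tRNA and include several ATF4 targets, stood on the same side. Of 19 measured, 17 were higher with the sponge in both lines (25.1% of all genes) and 0 were lower in both (26.1%). Their median difference was 0.50 in HEL and 0.24 in SET2. WARS, the tryptophan enzyme, differed by 1.31 and 0.47, AARS, the alanine enzyme, by 1.05 and 0.42, and CARS, the cysteine enzyme, by 1.13 and 0.18. HARS and RARS were the 2 exceptions, at -0.10 and -0.63 in HEL and 0.24 and 0.14 in SET2. In SET2 all 19 were higher with the sponge, as were 51.0% of all genes, but none by 1.5-fold.

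**Figure D3:**
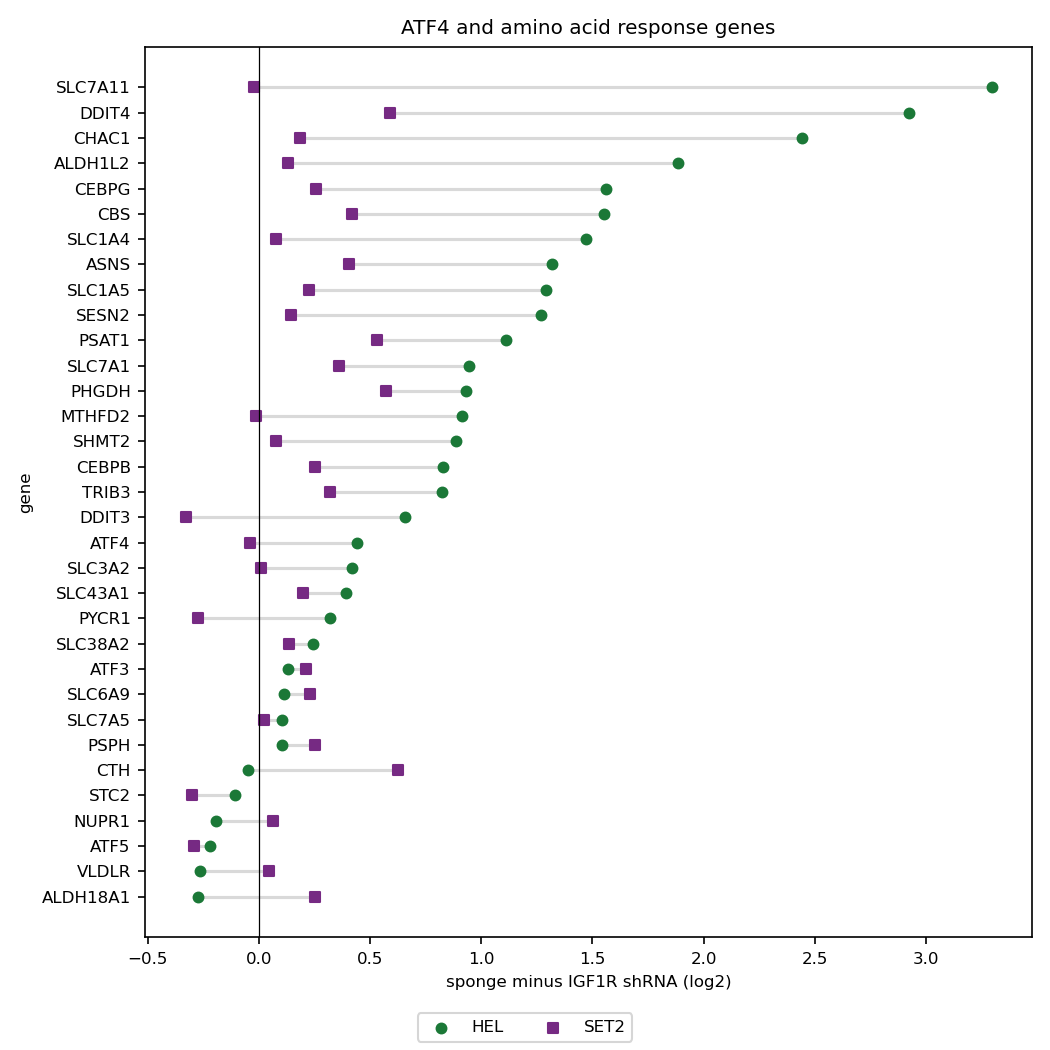
Difference sponge minus IGF1R shRNA (horizontal axis, log2) of the 33 genes listed for ATF4 and amino acid shortage, in HEL and SET2, 1 difference per line. Most points lie right of 0, those of HEL reach 3.30 for SLC7A11 and 2.93 for DDIT4, and those of SET2 stay under 0.7.

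ATF4 pairs with C/EBP factors on a composite site that is often written TGATGNAA. That motif, searched on both strands (as TTNCATCA on the other) in 300 bases around each start site in RefSeq on GRCh38.p14, was found in 5 of the 27 promoters available for the 33 listed genes. That is 18.5%, against 3.67% of all 27305 promoters of this length, as a description of the letters only. The 5 genes were ASNS, ATF3, CHAC1, SLC3A2 and SLC7A1. The promoters of ASNS and CHAC1 are shown because these genes carry the motif on opposite strands and were 1.32 and 2.44 higher with the sponge in HEL. The match is in capitals, ASNS lies at chr7:97872359-97872658 on the minus strand, CHAC1 lies at chr15:40953221-40953520 on the plus strand, and both are written along the gene.
ASNS: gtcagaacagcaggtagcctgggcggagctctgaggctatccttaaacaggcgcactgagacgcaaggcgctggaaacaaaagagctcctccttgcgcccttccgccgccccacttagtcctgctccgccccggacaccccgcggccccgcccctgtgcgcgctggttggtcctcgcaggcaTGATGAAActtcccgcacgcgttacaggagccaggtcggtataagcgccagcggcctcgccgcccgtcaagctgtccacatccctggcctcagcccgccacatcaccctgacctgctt
CHAC1: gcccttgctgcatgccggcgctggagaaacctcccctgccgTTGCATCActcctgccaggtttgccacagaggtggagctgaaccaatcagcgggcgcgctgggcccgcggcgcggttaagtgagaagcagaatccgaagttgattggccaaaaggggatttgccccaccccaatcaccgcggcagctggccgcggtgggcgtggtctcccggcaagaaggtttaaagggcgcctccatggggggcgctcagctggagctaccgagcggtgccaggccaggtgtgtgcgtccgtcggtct
The window of DDIT4 did not hold these letters, and binding of ATF4 was not measured.

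Cholesterol and fatty acid synthesis split the lines. These genes are induced together by the SREBP factors, which leave the endoplasmic reticulum for the nucleus when membrane cholesterol is low, and they feed the mevalonate, sterol and lipogenic pathways. Of 26 genes measured, 20 were lower with the sponge in HEL and higher in SET2, a combination seen in 25.7% of all genes. Of the rest, 1 was higher and 2 were lower in both lines, where 25.1% and 26.1% of all genes were. The median difference was -0.47 in HEL and 0.31 in SET2, which left -0.08 on average, and 0 members passed the test over all genes.

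HMGCS1, which makes the precursor of mevalonate, had 6.85 in HEL and 9.67 in SET2 with the sponge, 8.27 and 8.90 with the IGF1R shRNA, and 6.97 and 9.73 in the control. Sponge and control arrays were alike in each line, and the shRNA array stood above them in HEL and below them in SET2. The difference was -1.42 in HEL and 0.76 in SET2. SCD, which desaturates fatty acids, had 9.996 and 10.62 with the sponge, 10.62 and 9.68 with the IGF1R shRNA, and 9.87 and 10.69 in the control, with differences of -0.63 and 0.94. The same arrangement was seen for it. Later enzymes of the sterol branch were apart chiefly in HEL, with LSS at -1.04 and 0.27, SQLE at -1.02 and 0.18 and DHCR7 at -0.82 and 0.19. FDPS, which makes farnesyl diphosphate, differed by -0.46 and 0.73, MVD by -0.75 and 0.50, and the SREBP retention gene INSIG1 by -0.35 and 0.70. ACACA and FASN, the first enzymes of fatty acid synthesis, differed by -0.89 and -0.49 in HEL and by 0.31 and 0.56 in SET2. The exceptions were SREBF2, the SREBP gene of the sterol branch, at 0.68 and -0.17, ELOVL6 at 0.11 and 0.73, MSMO1 at -0.90 and -0.06, PMVK at -0.05 and -0.40, and CYP51A1 and HSD17B7, which did not differ in HEL.

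**Figure D4:**
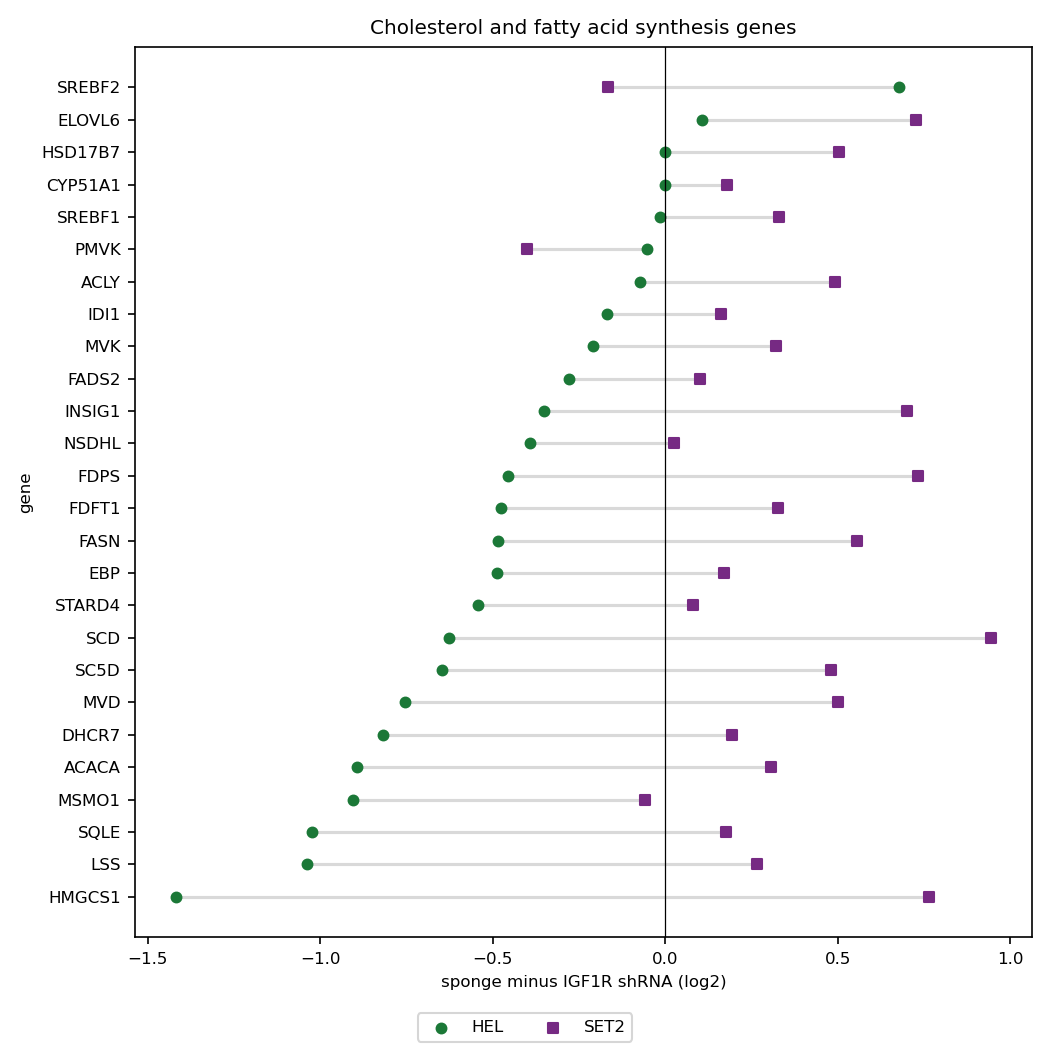
Difference sponge minus IGF1R shRNA (horizontal axis, log2) of the 26 genes of the cholesterol and fatty acid synthesis list in HEL and SET2, 1 difference per line. Points of HEL lie left of 0 for 22 genes and points of SET2 lie right of 0 for 23, with HMGCS1 at -1.42 and 0.76.

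Genes of ER stress and ER-associated degradation, which fold proteins in the secretory pathway or clear them through the proteasome, were mostly lower with the sponge in HEL and near the background in SET2. Of 29 measured, 24 were lower in HEL (52.0% of all genes) and 12 in SET2 (48.6%), with medians of -0.18 and 0.11. In both lines 10 were lower (26.1% of all genes) and 3 higher (25.1%). The chaperone genes CALR and HSPA5 differed by -1.03 and -0.68 in HEL and by 0.13 and 0.23 in SET2. HERPUD1, a component of the degradation machinery, was higher in both lines, at 1.06 and 0.52. EIF2AK3, which encodes the eIF2 kinase PERK, was lower in both lines, at -0.57 and -0.45. Among 38 proteasome genes 18 were lower in HEL and higher in SET2 (25.7% of all genes), with medians of -0.13 and 0.09. The activator gene PSME3 was higher in both lines, at 0.57 and 0.40.

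Genes of the pathway that the shRNA names were close to level. Of 42 genes of IGF-1 and insulin signalling, 14 were higher and 11 lower with the sponge in both lines (25.1% and 26.1% of all genes), and the median was 0.034 in HEL and 0.0046 in SET2. PTPN1, a phosphatase that acts on the insulin receptor, differed by 0.74 and 0.32, the adaptor gene SHC1 by 0.51 and 0.16, and the mTORC1 inhibitor gene TSC1 by -0.60 and -0.12. IRS1 and IRS2, the docking proteins of the receptors, differed by 0.09 and 0.04 in HEL and by 0.13 and -0.09 in SET2. FOXO factors are held out of the nucleus by AKT. Of 25 FOXO target genes, 12 were lower with the sponge in both lines (26.1% of all genes) and 2 were higher (25.1%). Their medians were -0.15 in HEL and -0.11 in SET2. Besides S1PR1, examples were SESN3 at -0.44 and -0.53 and BCL6 at -0.34 and -0.42. BCL6 was dim, at a mean level of 4.54. The cyclin gene CCNG2 stood the other way, at 0.36 and 0.40. TXNIP, an inhibitor of thioredoxin, differed by -1.70 in HEL and 0.20 in SET2.

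Published targets of miR-125 are the genes that a working sponge is meant to release. The comparison is with the shRNA arrays, so it does not say which array moved, and release was not tested. Of 29 measured, 12 were higher with the sponge in both lines (25.1% of all genes) and 3 were lower (26.1%). The median was 0.12 in HEL and 0.08 in SET2, none had an unadjusted p under 0.05, and none was past 1.5-fold in both lines. ARID3A, a chromatin factor of blood cells, differed by 0.53 and 0.18, and the cell cycle factor gene E2F3 by 0.57 and 0.05. ARID3A had 7.82 in HEL and 6.89 in SET2 with the sponge and 7.29 and 6.70 with the IGF1R shRNA. The control had 7.80 and 6.63. In HEL the sponge array was near the control, and in SET2 the shRNA array was. LIN28A differed by 0.36 and 0.17, at levels of only 3.91 to 4.34 on the 4 arrays, where the median gene had 5.55. LIN28B differed by 0.01 and 0.49. CBFB differed by 0.20 and 0.29, STAT3 by 0.17 and 0.23, and the proapoptotic BAK1 by -0.28 and 0.06. TNFAIP3, an inhibitor of NF-kB, differed by 0.69 in HEL and -0.44 in SET2. In the family of ZFAND2B, ZFAND4 was lower in both lines at -0.82 and -0.22 and ZFAND1 higher at 0.23 and 0.38.

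The 3 PEA3 factors, ETS proteins that report ERK activity, stood higher with the sponge in both lines, with ETV1 at 0.47 and 0.77 and ETV5 at 0.68 and 0.27 beside ETV4. ETV1 was dim, at 4.21 to 4.98 on the 4 arrays, where the median gene had 5.55. Of its 25 probe sets, 12 were higher and 3 lower in both lines, and with the brightest probe set ETV1 turned to -0.325. Of the immediate early genes in the same list, FOS, FOSB, JUN, JUND, IER3 and KLF10 were lower in both lines. ATF3 and MYC were higher in both, and EGR1 split at 0.94 and -0.35. FOSL1, JUNB, EGR2, EGR3, IER2, IER5 and NR4A1 also had opposite signs in the lines. FOS had 6.29 in HEL and 5.83 in SET2 with the sponge, 7.50 and 6.41 with the IGF1R shRNA, and 6.15 and 6.10 in the control. The shRNA array was the highest of each line. FOS differed by -1.21 and -0.58, its partner JUN by -1.04 and -0.48, and the TGF-beta responsive KLF10 by -1.22 and -0.30. ERK feedback genes were mixed, with DUSP6 at 0.67 and 0.01, SPRY2 at 0.37 and 0.18, DUSP4 at 0.31 and -0.14, DUSP5 at -0.92 and 0.01, and SPRY1 at -1.33 and 0.08. Over the 32 genes of the list 10 were higher and 10 lower in both lines (25.1% and 26.1% of all genes).

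The list of targets of JAK2 and STAT5, the pathway that is active in both lines, also holds JAK2, STAT5A and STAT5B themselves. Of its 21 genes, 9 were higher in both lines (25.1% of all genes), STAT5B among them, and 5 were lower (26.1%). PIM1, a survival kinase, differed by 0.82 in HEL and 0.36 in SET2, and LRRC32, described above, was past 1.5-fold lower in both. In the BCL2 family, BCL2 itself, which blocks cell death, was past 1.5-fold higher in both lines at 0.95 and 0.76. BCL2 stood at 6.41 in HEL and 6.44 in SET2 with the sponge, 5.46 and 5.68 with the IGF1R shRNA, and 6.41 and 6.44 in the control. Sponge and control were alike to the second decimal. The BCL2 antagonist gene PMAIP1, which encodes NOXA, was higher as well, at 0.68 and 0.32. Of 24 genes answering to NRF2 or serving glutathione, 11 were lower with the sponge in both lines (26.1% of all genes) and 1 higher (25.1%). HMOX1, which breaks down heme, differed by -1.18 and -0.38, and the ferritin gene FTL by -0.54 and -0.24.

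DNA replication genes were near level in HEL and mostly higher with the sponge in SET2. Of 31 DNA replication genes, 29 were higher in SET2 (51.0% of all genes) and 12 in HEL (47.6%), with medians of 0.25 and -0.05. MCM6, a subunit of the replicative helicase, differed by 0.37 in HEL and 0.39 in SET2, MCM3 by 0.04 and 0.52, and GINS2 by -0.93 and 0.21. Of 28 mitosis genes 11 were higher in both lines (25.1% of all genes) and 3 lower (26.1%), with medians of 0.15 in HEL and 0.14 in SET2, and the kinase gene AURKA differed by 1.03 and 0.47. Of 23 ribosome biogenesis genes 10 were higher in both lines (25.1% of all genes) and 0 lower (26.1%), with RRN3, a factor of RNA polymerase I, at 1.27 and 0.21 and MYC at 0.60 and 0.15. Of 32 genes of glycolysis and hypoxia, 6 were higher and 11 lower in both lines (25.1% and 26.1% of all genes). BNIP3, which serves the removal of mitochondria, and PFKM, a phosphofructokinase, were lower in both at -0.67 and -0.43 and at -0.35 and -0.26. VEGFA, a growth factor of vessels, and PFKFB4, a regulator of glycolysis, were higher in both lines at 0.79 and 0.38 and at 0.49 and 0.49.

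Among lineage lists, monocyte and granulocyte genes were higher with the sponge in both lines in 12 of 27 cases (25.1% of all genes) and lower in 4 (26.1%). Median differences of the erythroid, megakaryocyte, monocyte and granulocyte, lymphoid, and stem cell and progenitor lists lay between -0.1825 and 0.0897 in HEL and between -0.0288 and 0.2106 in SET2. In a bulk culture, fewer cells in a given state and less RNA per cell cannot be told apart. Single genes were apart in both lines. HBZ, the embryonic globin, had 5.41 in HEL and 5.995 in SET2 with the sponge, 3.89 and 5.22 with the IGF1R shRNA, and 5.65 and 5.91 in the control, a difference of 1.51 and 0.78. MS4A3, a marker of granulocyte precursors, differed by 0.80 and 0.73, and GATA2, a factor of progenitors and megakaryocytes, by 1.09 and 0.42. Among platelet genes besides THBS1, the adhesion receptor gene SELP differed by -0.48 and -0.51 and the myosin light chain gene MYL9 by -0.56 in each line, while PLEK differed by 0.59 and 0.46. MYL9 averaged 0.085 with the brightest probe set. PRF1 belongs to the lymphoid list, where 8 of 29 genes were higher and 13 lower in both lines (25.1% and 26.1% of all genes). The 4 T cell markers had median levels of 4.65 in HEL and 4.56 in SET2 with the sponge and 4.63 and 4.51 with the IGF1R shRNA. CD2 was the highest of them in HEL, at 6.745 with the sponge and 7.30 with the IGF1R shRNA.

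Cytokine and interferon genes were mixed. IL1B, an inflammatory cytokine, differed by 1.62 in HEL and 0.28 in SET2. The chemokine genes CCL3 and CXCL2 were lower in both lines, at -0.76 and -0.51 and at -0.70 and -0.40. CCL3 was dim, at a mean level of 4.795. Of 30 interferon response genes 10 were higher and 9 lower in both lines, near the 25.1% and 26.1% of all genes. BST2, which tethers budding virus, differed by 0.44 and 0.75 and OAS3, a sensor of double-stranded RNA, by 0.41 and 0.55, while IFI6 differed by -1.39 in HEL and -0.01 in SET2. Medians on average were between -0.03 and 0.12 for the interferon response, NF-kB and cytokines, heat shock and chaperones, glycolysis and hypoxia, the respiratory chain, p53 targets and metallothioneins.

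**Figure D5:**
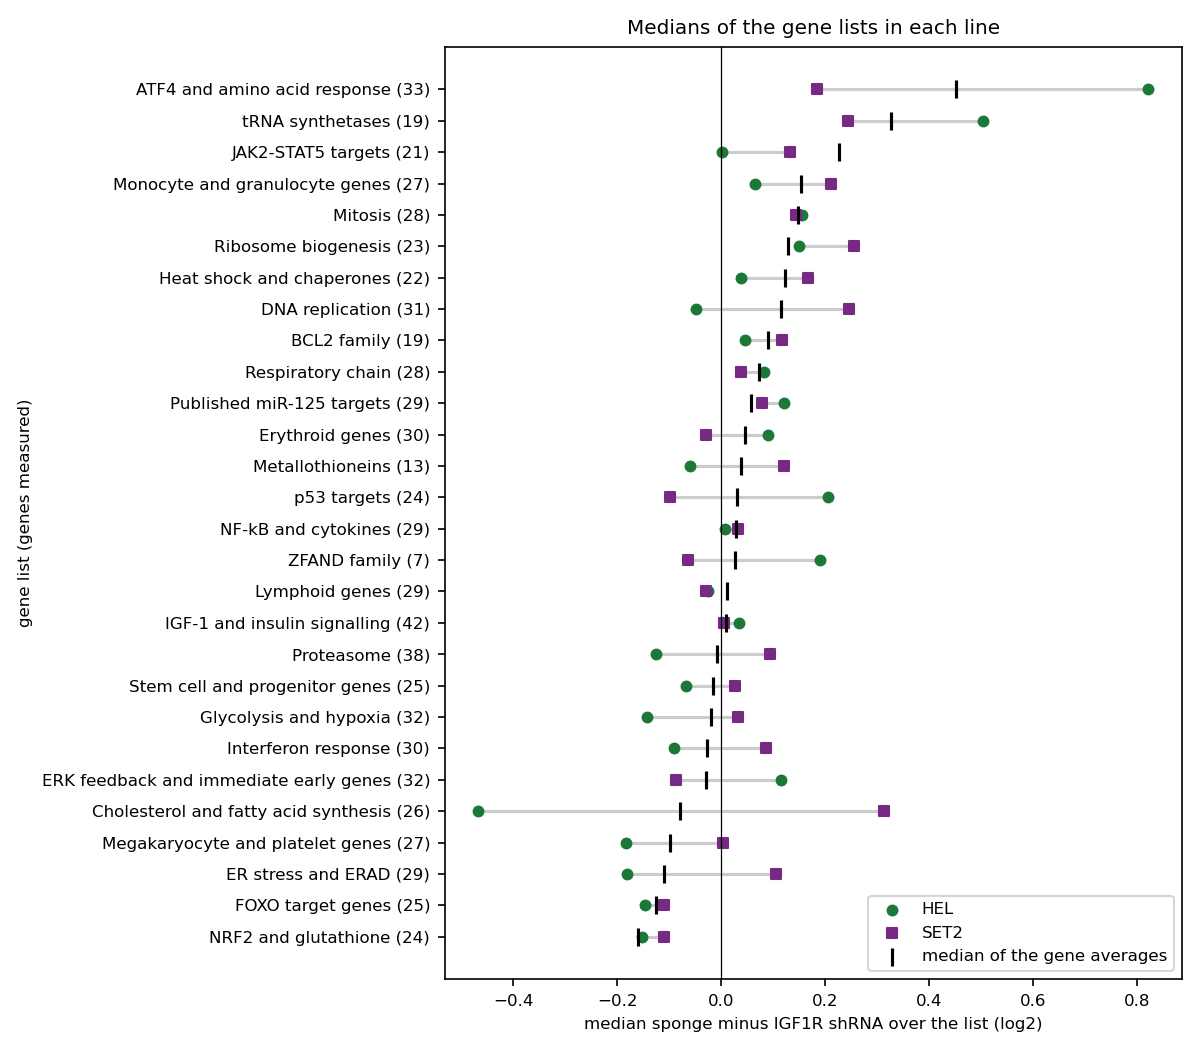
Median difference sponge minus IGF1R shRNA (horizontal axis, log2) of the 28 gene lists in HEL (circles), in SET2 (squares) and over the gene averages (bars), with the number of genes measured in brackets. The ATF4 list lies farthest right in HEL at 0.82 and the cholesterol list farthest left at -0.47, and in SET2 the cholesterol list lies at 0.31.

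Of the genes with opposite signs in the lines, CALB2 had the widest margins. It encodes the calcium buffer calretinin and had 8.41 in HEL and 6.91 in SET2 with the sponge, 6.71 and 8.04 with the IGF1R shRNA, and 8.48 and 7.31 in the control. The shRNA array was the lowest of HEL and the highest of SET2, and the differences were 1.70 and -1.12. TTN, the muscle protein titin, which is measured by 271 probe sets, had 5.94 and 5.64 with the sponge, 4.76 and 6.68 with the IGF1R shRNA, and 5.75 and 5.50 in the control. It showed the same arrangement. TRIB1, a pseudokinase that directs C/EBP factors to degradation, differed by 0.76 and -0.75, and IGFBP4, a carrier that withholds IGF from its receptor, by 0.71 and -0.66. The other way round, TNFSF10, which encodes the death ligand TRAIL, had 4.67 and 7.19 with the sponge, 5.63 and 6.36 with the IGF1R shRNA, and 4.47 and 7.34 in the control. ABHD3, a phospholipase gene, differed by -1.11 and 0.79, and CHP1, a calcium-binding partner of sodium-proton exchangers, by -0.87 and 0.75, beside HMGCS1.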

How the data were processed

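The labels' protocols say that total RNA was hybridised to GeneChip Human Gene 2.0 ST arrays. The deposited log2 values of 352859 probe sets came from the authors' run of Affymetrix Expression Console, as the submitters' processing notes record. For summarisation, normalisation and build, the sources used here give nothing. GEO's platform annotation gave 259224 probe sets a single symbol. They were averaged into 22320 genes (2618 from 1 probe set), and 20529 symbols were in RefSeq's table. Probe sets with several symbols (13116) or no gene (80519) were left out.

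limma 3.58.1 (R 4.3.3, lmFit, eBayes) fitted treatment and cell line to the 4 arrays, with 1 residual and 5.46 prior degrees of freedom, two-sided, with Benjamini-Hochberg adjustment over all genes and a threshold of 0.05. The code was tested on simulated data. The replicate numbers stand for lines, replicate 1 being HEL and replicate 2 SET2, so the cell line is the pairing. Deviations of the HEL sponge and HEL shRNA arrays from their group means correlated at 0.7735. The number of arrays limits the precision.

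Members and the 28 lists (784 entries, 743 measured) were chosen with earlier results of these data known. Ranked genes have 5 or more probe sets, a mean level at or above the median of 5.55 and signs as stated (small RNA, LOC and open reading frame symbols left out), 12 in each direction, and 4 in each direction with opposite signs. All members of the ATF4 and cholesterol lists could be named, and of other lists up to 3 in each direction. That last limit to averages of at least 0.3 was set after seeing the data. Other list members in the text were chosen for their roles, also after their values were seen. Alternatives changed the arrays fitted, the line term, the summary of probe sets, the filters, the normalisation and the moderation.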

Additional observations from a re-analysis of the deposited data

Results flagged for a closer look

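Differences of opposite sign in HEL and SET2 were flagged in 2 gene groups and 9 genes. With 1 array per line and treatment the difference between the lines was not tested. Over all 22320 genes, 22.3% were higher in HEL and lower in SET2, and 25.7% the other way round. Past 1.5-fold in each line these were 41 and 53 genes. The genes flagged, other than SCD, were ranked for opposite signs, so their signs follow from the choice. Gene groups were flagged where both medians were past 0.1. The median difference of cholesterol and fatty acid synthesis genes was -0.4669 in HEL and 0.3134 in SET2. For ER stress and ERAD genes it was -0.1808 in HEL and 0.1061 in SET2. CALB2 differed by 1.6967 in HEL and -1.1242 in SET2, and TTN by 1.1810 and -1.0373. TRIB1 differed by 0.7580 in HEL and -0.75 in SET2, and IGFBP4 by 0.7060 and -0.6560. On the other side, TNFSF10 differed by -0.9518 in HEL and 0.8291 in SET2, and ABHD3 by -1.1133 and 0.7856. HMGCS1 differed by -1.4172 in HEL and 0.7628 in SET2, CHP1 by -0.8657 and 0.75, and SCD by -0.6256 and 0.9444.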

How the results depend on the processing

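No test called a gene after adjustment with all 6 arrays in 1 fit (1528 at an unadjusted p under 0.05), without the line as replicate block (177; the term marks the pairing by line), with the median (1091) or brightest probe set (1194), with quantile normalization (1218) or with a trend in eBayes (1246). Leaving out genes of fewer than 5 probe sets called 2 genes higher and 1 lower, and leaving out dim genes 1 lower. Leaving out single arrays gave 0 to 330 called higher and 0 to 339 called lower, the upper ends without IGF1R shRNA replicate 2, when the control arrays supplied the spread and 60 named genes passed. The counts past 1.5-fold in both lines, 77 higher and 48 lower, became 250 and 173 with the median, 312 and 300 with the brightest probe set, 43 and 19 without genes of fewer than 5 probe sets, and 8 and 5 at 2-fold, and the lower count was 25 without dim genes.

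Of 143 named genes with the same sign in both lines or named as targets, 127 kept the sign of their average under each alternative that left them in the fit, since the filters on dim genes and on probe sets removed some of them. With the median of probe sets, reversed averages were -0.085 for IGF1R, -0.06 for SLC38A2 and -0.125 for CENPA. With the brightest probe set they were -0.095 for GOLGA8H, 0.03 for LRRC16A, 0.395 for JAG1, -0.325 for ETV1, -0.07 for RFC2, -0.035 for SLC16A3, -0.005 for HSP90AA1, -0.285 for TNFAIP2 and 0.085 for MYL9. Over single arrays left out, ranges that crossed 0 were -0.1537 to 0.2323 for ZFAND2B, -1.0618 to 0.0982 for MSMO1, -1.0628 to 0.2294 for DNAJB4 and -0.085 to 1.23 for PIR. The 39 named genes of opposite sign were followed by their value in each line. Of these 78 values, 56 moved with the median of probe sets and 52 with the brightest probe set. All 78 stayed the same with quantile normalization. The cause of these moves was not tested.

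List medians (average of the lines) moved as follows. With the median of probe sets they were -0.0238 for IGF-1 and insulin signalling, -0.195 for FOXO targets, 0.0975 for miR-125 targets, 0.1763 for mitosis, 0.035 for the BCL2 family, -0.0575 for NF-kB and cytokines, 0.0325 for lymphoid genes, -0.0925 for stem cell genes and -0.0825 for NRF2. With the brightest probe set they were -0.17 for FOXO targets, 0.1 for JAK2-STAT5 targets, 0.1175 for mitosis, 0.02 for the respiratory chain, -0.045 for NF-kB and cytokines and -0.04 for lymphoid genes. Without dim genes they were -0.1617 for the interferon response, 0.0812 for NF-kB and cytokines and 0.2057 for lymphoid genes, which stood at -0.0069 after quantile normalization. Over single arrays left out, the ranges were -0.0151 to 0.0536 for IGF-1 and insulin signalling, -0.1517 to -0.0817 for FOXO targets, 0.0043 to 0.1994 for JAK2-STAT5 targets, 0.1109 to 0.2099 for mitosis, 0.066 to 0.2232 for ribosome biogenesis, -0.1812 to 0.0919 for glycolysis and hypoxia, 0.0013 to 0.2203 for heat shock, -0.2875 to 0.1086 for ER stress and ERAD, -0.1553 to 0.1244 for the interferon response, -0.0533 to 0.0498 for NF-kB and cytokines, -0.1488 to 0.0785 for megakaryocyte genes, -0.0421 to 0.0292 for lymphoid genes and -0.1917 to -0.1098 for NRF2. The ATF4 and tRNA synthetase medians moved by less than the spread between the lines. This held under the median, the brightest probe set, quantile normalization and the filter on dim genes. It is a loose bound, since the ATF4 medians were 0.82 in HEL and 0.19 in SET2, with 0.45 on average. A move within that spread could exceed the ATF4 median itself. For these lists, medians with single arrays left out are not given here.

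With 1 array per line and treatment, 1 residual degree of freedom and no scanner files used here, differences between lines and detection above background were not tested.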

Other observations

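Probe sets with several symbols or no listed gene were outside the gene averages. At a mean level of 8 or more, 10929 of them were measured, and 0.823% were at least 1.5-fold higher and 0.631% at least 1.5-fold lower with the sponge in both lines. Among 65853 probe sets of single genes at that level the shares were 0.989% and 0.796%.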
